A study of Mus musculus with 10 samples.

Results

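The liver holds blood glucose steady by making glucose between meals and by storing or burning it after meals, and 9 genes of this system were followed here through ageing and through editing of Cd44. They were taken by symbol from a table of 24537 genes: Pck1, Fbp1 and G6pc, enzymes of glucose production, Slc2a2, the glucose transporter GLUT2, Pklr, the pyruvate kinase of liver and red cells, the insulin receptor substrates Irs1 and Irs2, the transcription factor Foxo1, and the coactivator Ppargc1a, also called PGC-1alpha. All 9 were found and all 9 passed the filter on low counts, which kept 13909 genes.

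RNA of 10 whole livers from male mice was sequenced. Every mouse had received an adeno-associated virus of serotype 8 (AAV8) carrying saCas9, a small Cas9 nuclease, under TBG, a promoter active in hepatocytes, with a guide RNA under the U6 promoter, so that the controls carried the virus and the nuclease too. Controls received a guide to Rosa26, a locus used as a neutral target. Young controls were injected at 7 months and harvested at 9 months of age (3 livers), old controls were injected at 23 months and harvested at 25 months (3 livers), and old mice with a Cd44 guide followed the same schedule (4 livers, of which replicates 1 and 2 had guide 4 and replicates 3 and 4 had guide 2). Cd44 encodes a cell surface receptor for the matrix sugar hyaluronan. Strain, feeding state and hour of harvest were not given in the sources used here.

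In the fasted state glucagon raises cyclic AMP in hepatocytes, the factor CREB then binds cAMP response elements in genes such as Pck1 and Ppargc1a, and the PGC-1alpha protein joins FOXO1 in driving the genes of gluconeogenesis. After a meal insulin signals through its receptor to IRS1 and IRS2 and on to the kinase AKT, which keeps FOXO1 out of the nucleus. Glucose taken up through GLUT2 also activates the factor ChREBP, which binds carbohydrate response elements and raises Pklr and genes of fat synthesis. G6pc is unusual in answering to both arms, since it is driven by FOXO1 and by ChREBP.

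The promoter stretches below come from 6 of the 9 genes. Each is shown because it matches a motif through which such hormonal or nutrient inputs are known to act. They are RefSeq sequence of build GRCm38.p6, written 5′ to 3′ on the gene's own strand, with motif matches in capitals, and all lie outside annotated exons. Position -1 is the last base before the RefSeq start. Pck1 and Ppargc1a carry CGTCA, the other strand of the cAMP response half-site TGACG. G6pc, Irs1 and Irs2 carry TGTTTTG, a core of insulin response sequences to which FOXO proteins bind. Irs1 and Irs2 also hold the E-box CACGTG beside it. In Irs1 the half-site CGTCA, the E-box and TGTTTTG overlap in 1 run. Pklr holds a carbohydrate response element, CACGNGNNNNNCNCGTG, before the start of the liver transcript and inside the intron of the transcript that starts upstream.

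Pck1, chr2:173152923-173153027, plus strand: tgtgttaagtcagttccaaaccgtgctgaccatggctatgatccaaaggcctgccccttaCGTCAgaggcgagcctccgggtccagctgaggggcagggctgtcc
Ppargc1a, chr5:51567730-51567834, minus strand: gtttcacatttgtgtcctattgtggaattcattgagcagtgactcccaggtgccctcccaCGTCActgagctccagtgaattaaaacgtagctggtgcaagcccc
G6pc, chr11:101367482-101367560, plus strand: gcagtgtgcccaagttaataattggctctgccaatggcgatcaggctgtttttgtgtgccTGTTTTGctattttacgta
Irs1, chr1:82291504-82291610, minus strand: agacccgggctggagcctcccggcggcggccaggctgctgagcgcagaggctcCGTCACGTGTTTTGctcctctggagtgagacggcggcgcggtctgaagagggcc
Irs2, chr8:11008930-11009026, minus strand: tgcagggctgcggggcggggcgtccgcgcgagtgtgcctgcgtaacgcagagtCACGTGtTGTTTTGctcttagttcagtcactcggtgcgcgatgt
Pklr, chr3:89136393-89136509, plus strand: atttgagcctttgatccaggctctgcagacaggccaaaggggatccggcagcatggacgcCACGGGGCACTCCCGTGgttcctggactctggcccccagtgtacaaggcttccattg

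The carbohydrate response element was the rarest of the motifs searched, on both strands of the 250 bases before each of 32851 RefSeq starts. It matched 13 windows, or 0.0396%, and 1 of the 10 windows of the 9 genes. The half-site TGACG matched 17.8% of all windows and 3 of these 10, TGTTTTG matched 5.56% and 3 of 10, and CACGTG matched 6.02% and 2 of 10. The FOXO core TGTTTAC matched 3.17% of all windows and none of the 10. A match describes the letters of the window and does not show that a factor was bound in these livers.

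Totals ran from 15821198 to 21710228 counts per liver. The check of the target came first: Cd44 had 10.1 to 16.6 counts scaled to library size (CPM) in young, 14.2 to 30.0 in old control and 13.1 to 29.01 in the livers labelled Cd44 knockout, and its level did not separate the knockout label from the old controls (log2 fold change -0.25, SE 0.30, edgeR adjusted p 0.896). By guide its log2 fold change from old controls was -0.60 (SE 0.34, edgeR adjusted p 0.778) for guide 2 and 0.04 (SE 0.33, edgeR adjusted p 0.998) for guide 4, and guide 4 stood 1.56-fold above guide 2, with 2 livers each (edgeR adjusted p 1). TBG directs the nuclease to hepatocytes, while whole-liver RNA also holds Cd44 of other cells, so directions for the knockout-labelled livers rest on the labels. The library name of old control replicate 3 lies outside the run of the other names, and the main results that turn on that liver are given with and without it. All 9 hepatocyte markers in the table were present, with a summed level of 88329 to 138430 CPM. Separate animals are implied by the labels but not stated for each library, so p-values measure the spread between these livers.

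Compared per length of exon, as RPKM (reads scaled to exon length, from GENCODE M21, and to library size), the enzymes stood well above the regulators. In young livers Pck1 stood at 885 ± 166 RPKM (SD, n = 3) and Fbp1 at 487 ± 18.7 (SD, n = 3), followed by Pklr at 100.1 ± 9.68, G6pc at 80.0 ± 14.3 and Slc2a2 at 34.7 ± 4.30. The regulators were far lower, with Foxo1 at 3.88 ± 0.42, Irs1 at 1.85 ± 0.196, Irs2 at 0.667 ± 0.367 and Ppargc1a at 0.563 ± 0.0995 RPKM. Enzymes and the transporter stood above all 4 regulators in each group. Pklr and G6pc did not differ beyond their spreads in young livers, nor in old controls, where they had 77.7 ± 13.0 and 61.9 ± 19.4 RPKM (SD, n = 3). The same held for the lowest pair, Irs2 and Ppargc1a, at 0.941 ± 0.738 and 1.08 ± 0.289 RPKM in old controls.

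**Figure D1:**
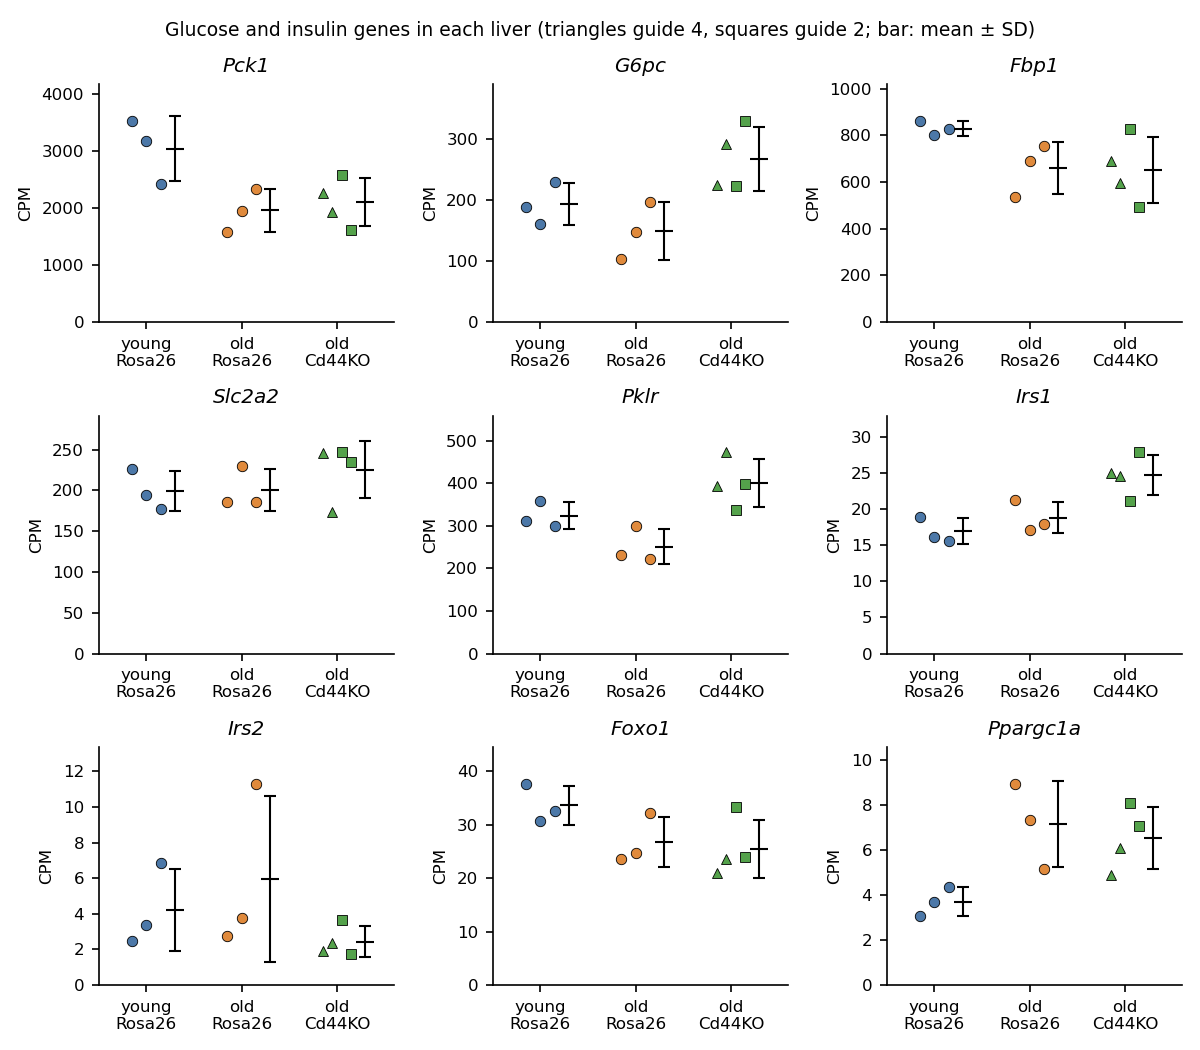
CPM of each of the 9 genes (vertical axes from 0) in every liver of the young Rosa26, old Rosa26 and old Cd44KO groups, with triangles for guide 4, squares for guide 2 and a bar for mean ± SD. Ppargc1a lies at 3.06 to 4.37 CPM in young and at 4.88 to 8.95 CPM in all old livers, and G6pc and Pklr lie higher in each knockout-labelled liver than in any old control.

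Ageing was examined first, by comparing old with young control livers. Ppargc1a was the only one of the 9 genes called (edgeR adjusted p under 0.05), and it rose: 1 of 9 against 22.8% of all genes tested, 14.1% higher and 8.66% lower. The enzymes lay on the low side, with Pck1, Fbp1 and Pklr lower in every old control than in any young liver, but none of them passed. Such separation was seen in 18.0% of all genes in the lower and 19.7% in the higher direction. At an unadjusted p under 0.05 there were 3 of the 9 genes, against 38.5% of all. The median log2 fold change of the 9 was -0.33 and that of all genes 0.04. Of all 3172 called genes 62% were higher; with upper quartile factors, which raise the median of all genes by 0.112, it was 77.6%. Leaving out any of these livers but old control replicate 1 moved the count of called genes by over 1.5 times, from 396 without young replicate 2 to 5327 without old control replicate 3.

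Pck1 encodes the cytosolic PEP carboxykinase, which commits oxaloacetate to glucose production (chromosome 2, 173153048 to 173159273, plus strand, GRCm38). Young livers had 3524, 3173 and 2409 CPM, old controls 1581, 1949 and 2337 CPM. The groups were separated by a small gap between young replicate 3 and old control replicate 3, the liver with the outlying name. On average 3036 ± 570.1 CPM stood against 1956 ± 378 CPM (SD, n = 3 each), which on the log2 scale is -0.63 (SE 0.22, edgeR adjusted p 0.0609). This missed the threshold; without old control replicate 3 it was -0.79 (edgeR adjusted p 0.0221), and DESeq2 gave -0.64 (DESeq2 adjusted p 0.0242).

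Fbp1 encodes fructose-1,6-bisphosphatase, the next controlled step (chromosome 13, 62864753 to 62888282, minus strand). It had 863, 800.0 and 826 CPM in young and 538, 691 and 753 CPM in old control livers. The young values were tight, with a coefficient of variation of 3.83%, and the old ones spread to 16.8%. The log2 fold change was -0.33 (SE 0.20, 95% interval -0.76 to 0.10, edgeR adjusted p 0.24), and -0.44 without old control replicate 3.

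G6pc encodes the catalytic subunit of glucose-6-phosphatase, which releases free glucose from the hepatocyte (chromosome 11, 101367561 to 101377903, plus strand). Young livers had 189, 161 and 229.5 CPM and old controls 103, 148 and 197 CPM. These ranges overlapped, old control replicate 3 again being the nearest to the young livers. The log2 fold change was -0.37 (SE 0.24, edgeR adjusted p 0.281), and -0.62 without that liver (edgeR adjusted p 0.0533).

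Slc2a2, the high-capacity transporter that lets glucose cross the hepatocyte membrane both ways (chromosome 3, 28697903 to 28731359, plus strand), had 226, 194 and 178 CPM in young and 185.5, 229.7 and 185.4 CPM in old control livers. The log2 difference, 0.01 (SE 0.17, edgeR adjusted p 0.983), had a 95% interval of -0.36 to 0.38, so changes inside it in either direction were not excluded.

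Pklr, which makes pyruvate in the last step of glycolysis (chromosome 3, 89136142 to 89146784, plus strand), had 312, 359 and 300.2 CPM in young and 232, 299.6 and 223 CPM in old control livers. The groups were parted by less than 1 CPM, between young replicate 3 and old control replicate 2. The log2 fold change was -0.37 (SE 0.17, edgeR adjusted p 0.13).

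Foxo1, which switches on G6pc, Pck1 and Irs2 when insulin is low (chromosome 3, 52268336 to 52353221, plus strand), had 37.7, 30.7 and 32.6 CPM in young and 23.6, 24.7 and 32.2 CPM in old controls. Only old control replicate 3 reached the young range. The log2 fold change of Foxo1 was -0.33 (SE 0.18, edgeR adjusted p 0.215), and -0.48 without that liver.

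Ppargc1a (chromosome 5, 51454250 to 51567726, minus strand) rose where the enzymes whose genes it coactivates lay on the low side. It had 3.06, 3.69 and 4.37 CPM in young and 8.95, 7.34 and 5.15 CPM in old control livers, with no overlap. Its rise was 1.93-fold (log2 fold change 0.95, SE 0.26, edgeR adjusted p 0.0269). The values rest on 50 to 182 counts per liver in these groups. The call was lost when only the 6 control livers entered the fit (edgeR adjusted p 0.0661). It was also lost on leaving out young replicate 1 (edgeR adjusted p 0.0891), young replicate 2 (0.0899), old control replicate 1 (0.0697) or old control replicate 2 (0.0754). Over all livers left out the log2 fold change ran from 0.75 without old control replicate 1 to 1.13 without old control replicate 3.

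The insulin receptor substrates differed mainly in how much livers of 1 group varied. Irs1 (chromosome 1, 82233101 to 82291416, minus strand) had 19.0, 16.2 and 15.6 CPM in young and 21.3, 17.2 and 18.0 CPM in old control livers, with a log2 difference of 0.15 (SE 0.14, edgeR adjusted p 0.453). Irs2 (chromosome 8, 10984681 to 11008458, minus strand) had 2.45, 3.36 and 6.84 CPM in young and 2.75, 3.78 and 11.3 CPM in old controls. In each of these groups replicate 3 was the highest for Irs2. Its coefficient of variation was 55.0% in young and 78.5% in old controls, against 10.6% and 11.7% for Irs1. The log2 fold change of Irs2 was 0.50 (SE 0.53, edgeR adjusted p 0.52), and -0.37 without old control replicate 3.

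Per length, Irs1 exceeded Irs2 in all 10 livers. The ratio of Irs1 to Irs2 was 5.36, 3.32 and 1.58 in young, 5.36, 3.14 and 1.10 in old control, and 9.03, 7.24, 3.99 and 11.0 in knockout-labelled livers. It was smallest in the third replicate of each group.

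**Figure D2:**
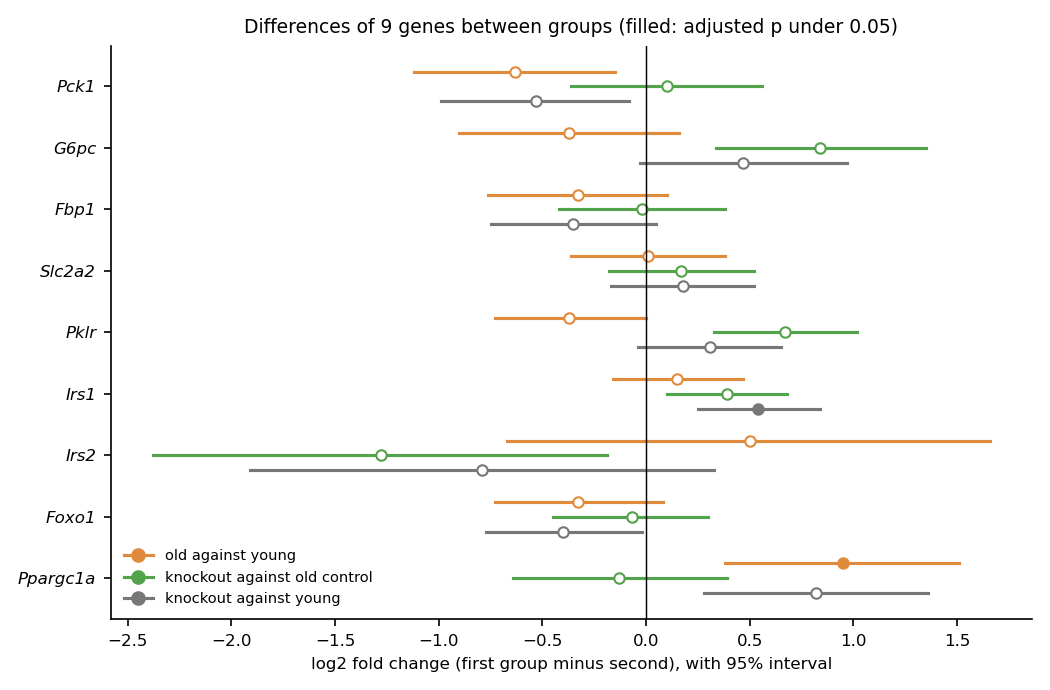
Log2 fold changes with 95% intervals of the 9 genes (rows) in old against young, knockout-labelled against old control and knockout-labelled against young livers; filled points have an edgeR adjusted p under 0.05. The filled points are Ppargc1a in old against young, at 0.95, and Irs1 in knockout-labelled against young, at 0.54.

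Other cells of the liver moved with age beside these genes. Endothelial markers were called higher in 8 of 10, with a summed level of 386 to 433 CPM in old controls against 194 to 266 in young, and macrophage markers in 8 of 10 (487 to 1595 against 249.5 to 352 CPM). Stellate cell markers were called higher in 5 of 10 (354 to 535 against 175 to 324 CPM), T and B cell markers in 6 of 10 (9.83 to 72.3 against 5.70 to 9.91 CPM) and neutrophil markers in all 4 that could be tested of 8. The neutrophil sum was 294 CPM in old control replicate 2 and 13.7 to 15.6 CPM in the other old controls, against 3.36 to 8.87 CPM in young livers, in which Ly6g, Camp and Ltf were at 0. Hepatocyte markers were called lower in 2 of 9, with 88329 to 118660 CPM in old control and 108610 to 138430 CPM in young livers. Young replicate 3 had 28.3 CPM of skeletal muscle markers, against at most 2.22 CPM in any other liver. In RNA of whole liver fewer hepatocytes and less RNA per hepatocyte cannot be told apart, and the part of these cells in the age differences was not tested.

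The wider pathways were read from lists of genes, some of which hold genes already followed here. The gluconeogenesis and FOXO1 target lists hold 4 each, the insulin transduction and ChREBP-related lists 3 each. The glycolysis list and the glucagon and cAMP list hold 1 each. Counts and medians of these lists therefore partly repeat values given above. Of 30 tested genes of gluconeogenesis and glucose release, 1 rose and 8 fell with age, against 14.1% of all genes higher and 8.66% lower, with a median log2 fold change of -0.36 (all genes 0.04). With 1 liver left out at a time 3 to 15 fell, most without old control replicate 3 and fewest without young replicate 2 or old control replicate 2, with medians of -0.48 to -0.27; 3 fell with only the groups compared and 4 with upper quartile factors. The counts of the lists that follow stand against the same shares of all genes, and each moved by over 1.5 times on leaving out at least 1 liver. The mitochondrial PEP carboxykinase Pck2 was the one that rose, from 3.97 ± 0.488 to 8.14 ± 2.24 CPM (SD, n = 3 each; log2 fold change 1.03, SE 0.23, edgeR adjusted p 0.014), while Pck1 lay on the low side. Gpd1, which brings glycerol carbon into the pathway, fell from 576 ± 35.4 to 295 ± 45.4 CPM (log2 fold change -0.96, SE 0.16, edgeR adjusted p 0.00783), and the lactate carrier Slc16a1 fell by 0.95 (edgeR adjusted p 0.0131).

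Of the genes of glycolysis and pyruvate use, 6 of 36 were higher and 5 lower (all genes 14.1% and 8.66%), with a median of 0.12. The count was 0 higher and 2 lower without young replicate 2, 1 and 1 without old control replicate 2, 2 and 3 without young replicate 3, 9 and 5 without old control replicate 1, and 8 and 10 without old control replicate 3. Those that rose include isoforms known from cells other than hepatocytes: Pkm, the muscle-type pyruvate kinase (1.41, edgeR adjusted p 0.0192), and Hk3, a hexokinase of myeloid cells (1.48, edgeR adjusted p 0.0237). Both were highest in old control replicate 2, at 76.3 and 18.5 CPM, the liver with the most macrophage and neutrophil markers. Among old controls that liver was also highest for Pck2, Pfkfb4, Pygb, Prkcd, Trib2, Pde4b, Nr4a1, Sesn1 and Txnip, which rose too. For Phka2, Gab1, Enpp1, Phlpp2, Pde4d, Adcy6, Pnpla3, Dbp and Per3, which also rose, another old control was highest. The part of other cells in these values was not tested. Pfkfb3, which makes the fructose-2,6-bisphosphate that speeds glycolysis, fell from 46.0 ± 16.9 to 15.4 ± 7.53 CPM (-1.58, edgeR adjusted p 0.0138), and its relative Pfkfb4 rose (1.63, edgeR adjusted p 0.011).

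Genes of glycogen storage had 2 of 20 higher and 1 lower, no larger a share than among all genes (14.1% and 8.66%), with 3 higher and 5 lower without old control replicate 3 and 1 and 0 without young replicate 2. Pygb, the brain form of glycogen phosphorylase, rose by 1.72 (edgeR adjusted p 0.00819), Phka2, the liver regulator of phosphorylase kinase, by 0.99 (edgeR adjusted p 0.0133), and Gsk3b, a kinase that restrains glycogen synthase, fell by 0.53 (edgeR adjusted p 0.00981). Below the insulin receptor 3 of 31 transduction genes rose and 3 fell, near the shares of all genes. This became 0 and 0 without young replicate 2, 0 and 1 with only the groups compared, and 3 and 7 without old control replicate 3. They include the docking protein Gab1 (0.81), which rose, and the S6 kinase Rps6kb1, which fell by 0.50 (edgeR adjusted p 0.0175 and 0.0269). Rps6kb1 lost its call on leaving out 5 of the 6 livers and in 2 of 6 other settings.

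Among genes that restrain insulin signalling, 5 of 22 rose and 1 fell, against 14.1% and 8.66% of all genes. This balance turned to 4 higher and 8 lower without old control replicate 3. It was 0 and 0 without young replicate 2, and 1 and 0 without old control replicate 2 or with only the groups compared. Enpp1, a membrane protein that hinders the insulin receptor, went from 20.6 ± 1.13 to 35.2 ± 8.92 CPM (0.77, edgeR adjusted p 0.0115). Prkcd, a kinase that phosphorylates IRS proteins, rose by 0.93, the pseudokinase Trib2 by 0.65 and Phlpp2, a phosphatase of AKT, by 0.62 (edgeR adjusted p 0.0183, 0.047 and 0.0465). Phlpp2 lost its call on leaving out any of the 6 livers and Trib2 on leaving out 5 of them, and each lost it in 3 of 6 other settings. The glucagon and cAMP list had 6 of 40 higher and 5 lower, near the shares of all genes, with 0 and 1 without young replicate 2, 2 and 3 without old control replicate 2 or with only the groups compared, and 8 and 8 without old control replicate 3. The phosphodiesterases Pde4d (1.57) and Pde4b (1.48), which break down cAMP, the cyclase Adcy6 (1.2), which makes it, and Nr4a1 (1.43), a nuclear receptor induced by it, all rose (edgeR adjusted p 0.0123, 0.034, 0.0266 and 0.017).

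Of known FOXO1 targets 3 of 23 were higher and 5 lower, against 14.1% and 8.66% of all genes. The count was 1 and 1 without young replicate 2, without old control replicate 2 or with only the groups compared, and 3 and 8 without old control replicate 3. Angptl4, an inhibitor of lipoprotein lipase that is also a PPAR target, fell from 181 ± 40.2 to 54.8 ± 6.51 CPM (-1.73, edgeR adjusted p 0.00772), and Tat, which breaks down tyrosine, fell by 0.84 (edgeR adjusted p 0.0479). Tat lost its call in 5 of 6 other settings and on leaving out 4 of the 6 livers. Sesn1 rose by 0.93 and Txnip by 0.83 (edgeR adjusted p 0.00936 and 0.0311). Of 25 ChREBP-related genes 2 rose and 5 fell, with 0 and 4 without young replicate 2 and 4 and 5 without old control replicate 3. Me1, which supplies NADPH for fat synthesis, fell by 1.09 (edgeR adjusted p 0.00877), while Pnpla3, a lipid droplet protein, rose (3.18, edgeR adjusted p 0.0196) with 57.2, 38.2 and 3.82 CPM in the old controls, the last within the young range of 1.45 to 5.45 CPM. Of the 32 list genes that could be named for age, 8 stayed called under every alternative and with each liver left out, among them Gpd1, Pygb, Angptl4, Sesn1, Me1 and the clock genes Per3 and Nfil3. The other 24 lost the call on leaving out at least 1 liver, 15 of the 32 lost it under another setting, and none changed direction.

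**Figure D3:**
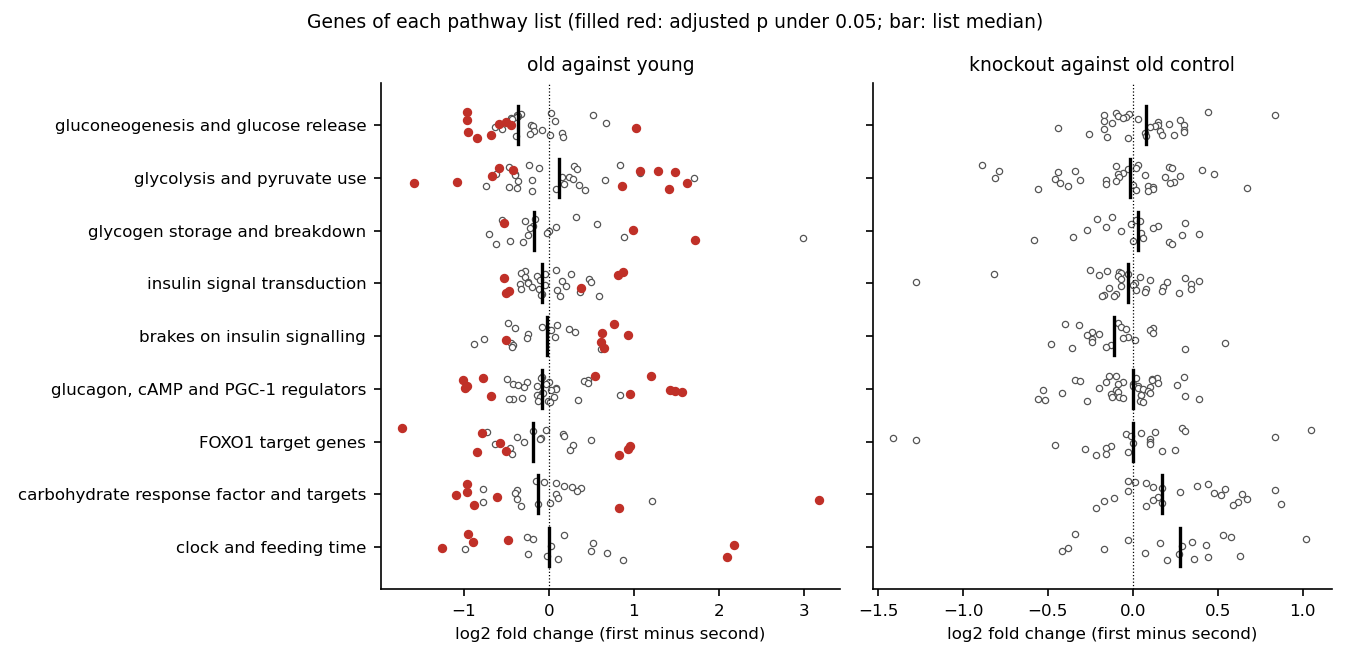
Log2 fold changes of the tested genes of 9 pathway lists (rows), old against young on the left and knockout-labelled against old control on the right; red points have an edgeR adjusted p under 0.05 and bars are list medians. Red points lie on both sides of 0 for each list on the left, 8 of 9 of them to the left for gluconeogenesis, and none is red on the right.

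Several of the 9 genes follow the daily clock and meals, so clock genes were read in the same livers. The activator Arntl had 14.2, 21.2 and 12.3 CPM in young, 5.80, 7.70 and 11.2 in old control and 5.24 to 7.77 CPM in knockout-labelled livers. Dbp, a clock output factor that normally peaks in antiphase to Arntl, had 13.4, 2.64 and 24.7 CPM in young, 86.4, 71.6 and 26.7 in old control and 74.3 to 91.0 CPM in knockout-labelled livers. With age Arntl fell by 0.95 and Nfil3 by 1.25, and Dbp rose by 2.18 and Per3 by 2.09 (edgeR adjusted p 0.0318, 0.00936, 0.0263 and 0.0133), among 2 of 18 clock genes higher and 4 lower (6 and 4 without old control replicate 3, 1 and 1 without young replicate 2). Of the old controls, replicate 3 lay nearest to the young livers for each of these 4 genes. The same held for Pck1, Fbp1, Foxo1 and Ppargc1a, and for G6pc, where it lay inside the young range. Other genes did not follow this. Replicate 3 was the old control farthest from the young livers for the clock genes Cry1 and Npas2, and for Pklr and Irs2. Cry1 had 5.06, 5.74 and 4.15 CPM in old controls and 8.17 to 10.4 CPM in young livers. For the clock gene Clock, replicate 1 lay nearest. The part of the hour of harvest or of feeding in the age differences was not tested.

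**Figure D4:**
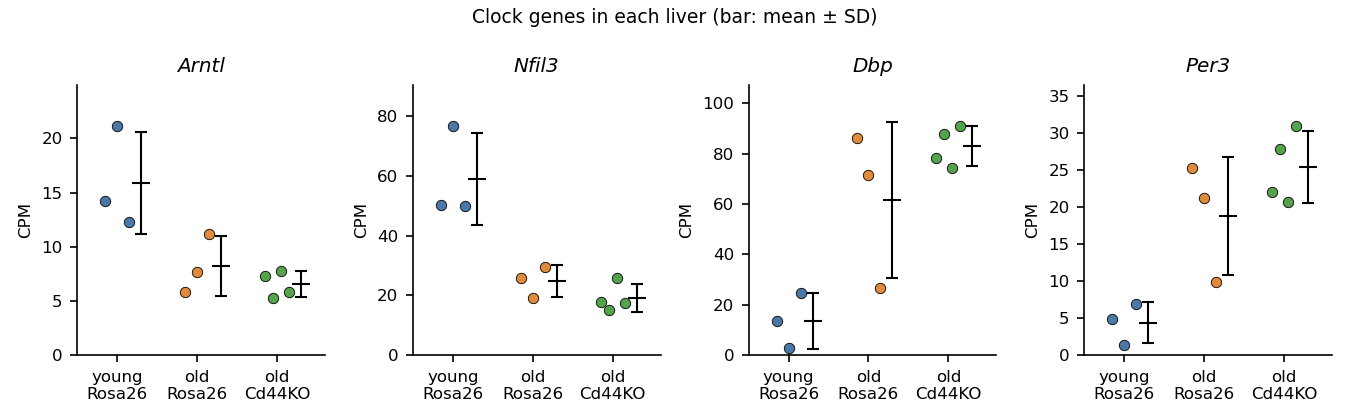
CPM of the clock genes Arntl, Nfil3, Dbp and Per3 in every liver by group (vertical axes from 0), with mean ± SD. Dbp lies at 26.7 CPM in 1 old control, near the highest young liver at 24.7, and at 71.6 to 91.0 in the other old livers.

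The second comparison asked how livers given a Cd44 guide differ from old controls. No gene of 13909 was called by edgeR in either direction (0%, higher or lower, smallest adjusted p 0.744), so 0 of the 9 genes passed. At an unadjusted p under 0.05 there were 916 genes, or 6.59%, by edgeR, and DESeq2 called 8 genes at an adjusted p under 0.05, none of them among the 9. Among the 9 genes 4 had an unadjusted p under 0.05: G6pc, Pklr and Irs1 on the high side and Irs2 on the low side. G6pc and Pklr were higher in all 4 knockout-labelled livers than in any old control, a separation seen in 2.84% of all genes in that direction and 3.26% in the other. The median log2 fold change of the 9 was 0.10 and that of all genes -0.02.

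G6pc had 225 and 292 CPM in the livers of guide 4 and 223 and 330.2 CPM in those of guide 2, against 103 to 197 CPM in old controls. Means were 268 ± 52.6 (SD, n = 4) and 149 ± 46.9 CPM (SD, n = 3), with a log2 difference of 0.84 (SE 0.23, 95% interval 0.34 to 1.35, edgeR adjusted p 0.744). Leaving out 1 liver at a time gave 0.64 (without old control replicate 1) to 1.09 (without old control replicate 3). Against young livers, at 161 to 229.5 CPM, the log2 fold change was 0.47 (SE 0.23, edgeR adjusted p 0.172), and these ranges overlapped.

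The guide 4 livers had 393 and 473 CPM of Pklr and the guide 2 livers 337 and 399 CPM, against 223 to 299.6 CPM in old controls. Means were 400.5 ± 55.8 (SD, n = 4) and 251 ± 42.0 CPM (SD, n = 3), with a log2 difference of 0.67 (SE 0.16, 95% interval 0.33 to 1.02, edgeR adjusted p 0.744). The knockout-labelled livers overlapped the young ones, at 300.2 to 359 CPM (0.31, SE 0.16, edgeR adjusted p 0.191). Exons of Pklr share 711 bases, 22.0% of their length, with Hcn3 on the opposite strand, and the use of strand in counting was not given in the sources used here. Counts of Hcn3 were 303, 1715, 368 and 736 in knockout-labelled replicates 1 to 4, against 324, 272 and 103 in old controls. Young livers had 155, 157 and 245. The part of Hcn3 in the Pklr values was not tested. The liver with the most Hcn3, knockout-labelled replicate 2, was also the highest for Pklr. Without that liver the log2 fold change of Pklr was 0.58.

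For Irs1, guide 4 livers had 25.0 and 24.6 CPM, guide 2 livers 21.2 and 27.9 CPM, against 17.2 to 21.3 CPM in old controls. The ranges overlapped narrowly, between 21.2 and 21.3 CPM, and the log2 fold change was 0.39 (SE 0.13, edgeR adjusted p 0.744). Irs1 shares 30.9% of its exon bases with the opposite-strand gene Gm9747, which has no row in the table; the shares for Foxo1 (with Gm20402) and Irs2 (with 9530052E02Rik) are 7.8% and 2.6%. Irs2, the other adaptor, had 1.92 and 2.36 CPM in livers of guide 4, 3.67 and 1.75 CPM in those of guide 2, against 2.75 to 11.3 CPM in old controls. The log2 difference, -1.28 (SE 0.50, edgeR adjusted p 0.744), rested largely on old control replicate 3 and was -0.42 without it. Irs2 values come from 30 to 237 counts per liver.

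The other 5 genes overlapped between these groups too, as Irs1 and Irs2 did. In the knockout-labelled livers Pck1 had 2267, 1931, 2582 and 1603 CPM (0.10, SE 0.21), Fbp1 had 689.6, 595, 826 and 493 CPM (-0.02, SE 0.18) and Slc2a2 had 246, 174, 247 and 234 CPM (0.17, SE 0.16). Foxo1 had 21.0, 23.6, 33.3 and 24.04 CPM (-0.07, SE 0.17) and Ppargc1a had 4.88, 6.11, 8.10 and 7.06 CPM (-0.13, SE 0.23). The 95% intervals of the log2 fold change were -0.36 to 0.56 for Pck1, -0.42 to 0.38 for Fbp1, -0.18 to 0.52 for Slc2a2, -0.45 to 0.30 for Foxo1 and -0.64 to 0.39 for Ppargc1a. Differences inside these bounds were not excluded with 4 and 3 livers. The bounds are not limits of detection, since 0.84 for G6pc was not called in this comparison either.

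The ChREBP-related list stood on the high side of this comparison, with 20 of 25 genes above 0 against 45.6% of all genes, a median of 0.17, and 8 with an unadjusted p under 0.05 on the high side against 2.57% of all genes; by adjusted p 0 of 25 passed. The median was 0.40 without old control replicate 1, 0.28 without old control replicate 2 or knockout-labelled replicate 2, 0.32 without knockout-labelled replicate 3, 0.15 to 0.19 without any of the others, and 0.29 with voom. Besides Pklr and G6pc these 8 include Thrsp (0.87), a marker of fat synthesis, Tkfc (0.59) and Khk (0.48), enzymes of fructose use, Me1 (0.52) and Arrdc4 (0.38), which were named after their values were seen (edgeR adjusted p 0.744 for each). The list holds 3 of the genes followed here, Pklr and G6pc among them, so its counts and median partly repeat their values. Counts without these genes are not given here, and the list was chosen with earlier results of these data known. Mlxipl, which encodes ChREBP itself, had -0.11 (SE 0.34). Igfbp1, a FOXO1 target that insulin represses, was not called and is named outside the rule for list genes. It had 17.8 CPM on average in knockout-labelled and 47.6 CPM in old control livers (-1.41, SE 0.58, edgeR adjusted p 0.744). Its values with a liver left out are not given here. The FOXO1 list as a whole did not go its way, with 12 of the 23 targets above 0 and a median of 0. The clock list had a median of 0.28, with 13 of 18 genes above 0, and 0.10 without old control replicate 3. No other pathway list had a median beyond 0.11 in size.

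Marker levels differed too between these groups, with 0 markers called. Macrophage markers had 10 of 10 on the low side and a sum of 434 to 792 CPM against 487 to 1595 CPM, and endothelial markers 10 of 10 with 257 to 325 against 386 to 433 CPM. Neutrophil markers had 4 of 4 tested on the low side, with 7.61 to 22.9 against 13.7 to 294 CPM. Stellate cell markers had 10 of 10 on the low side, with sums of 296 to 339 against 354 to 535 CPM that did not overlap. T and B cell markers went the other way, with 7 of 10 on the high side, a median of 0.13 and 24.9 to 38.8 against 9.83 to 72.3 CPM. Hepatocyte markers had 4 of 9 on the high side, with sums of 96012 to 100130 and 88329 to 118660 CPM. The 7 adipocyte markers summed to 12.3 to 56.2 CPM in knockout-labelled and 8.44 to 23.2 CPM in old control livers; the 2 that could be tested had a median of 0.41, 1 of them with an unadjusted p under 0.05 on the high side, while Adipoq, Plin1, Lep and Adig were at 0 in all knockout-labelled livers. Their part in the values of G6pc, Pklr, Irs1 and Irs2 was not tested.

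Age and Cd44 comparisons share the old control livers, so their values are set side by side and not related to each other. From young to old control the log2 fold change was -0.37 for G6pc and -0.37 for Pklr, and from old control to knockout-labelled livers 0.84 and 0.67. For Pck1 the same pair of values was -0.63 and 0.10, for Fbp1 -0.33 and -0.02, and for Ppargc1a 0.95 and -0.13.

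Against young livers, which differ from the knockout-labelled ones in both age and guide, 11.6% of all genes were called, 6.64% higher and 4.97% lower. The share higher among the called was 57.2%, and 75.6% with upper quartile factors or 43.9% with voom. Of the 9 genes 1 was called, Irs1, which rose 1.46-fold (log2 fold change 0.54, SE 0.13, edgeR adjusted p 0.0321). The lowest knockout-labelled liver had 21.2 CPM and the highest young liver 19.0 CPM. The call was lost on leaving out young replicate 1, 2 or 3 (edgeR adjusted p 0.0556, 0.132 and 0.105) or knockout-labelled replicate 2, 3 or 4 (0.0737, 0.0505 and 0.0817), with log2 fold changes of 0.48 to 0.63. Ppargc1a was likewise higher in every knockout-labelled than in any young liver (0.82, SE 0.25, edgeR adjusted p 0.0531); it passed with DESeq2 (0.80, DESeq2 adjusted p 0.0205), with upper quartile factors (0.93, edgeR adjusted p 0.0398), with only these groups in the fit (0.0189) and without knockout-labelled replicate 1 (0.93, 0.0401). Such separation was seen in 21.1% of genes in the higher and 18.8% in the lower direction. At an unadjusted p under 0.05 there were 4 of the 9 genes, Pck1 and Foxo1 (-0.53 and -0.40, edgeR adjusted p 0.101 and 0.13) besides those named, against 33.3% of all.

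The pathway lists were read again in this comparison, which shares the young livers with that of age. Gluconeogenesis had 0 of 30 genes higher and 6 lower (all genes 6.64% and 4.97%), among them Tat (-0.87), Gpd1 (-0.68) and Slc16a1 (-0.66). The 6 became 0 on leaving out young replicate 2 or 3 or knockout-labelled replicate 2, 3 or 4, 1 without young replicate 1, and 1 with upper quartile factors, 2 with voom and 3 without the filter on low counts, but 10 with only the groups compared. In the insulin lists Akt2, the main AKT of liver, fell by 0.43 (edgeR adjusted p 0.0438) from 111 ± 5.26 to 82.6 ± 6.0 CPM (SD, n = 3 and 4). Akt2 lost its call on leaving out any of the 7 livers and in 3 of 6 other settings. The phosphatases Ptpn1 (-1.0), which acts on the insulin receptor, and Ptpn2 (-0.49) fell, and Phlpp2 rose (0.74; edgeR adjusted p 0.0288, 0.0372 and 0.035). Pfkfb2, the cardiac-type bifunctional enzyme, and Ldha, a subunit of lactate dehydrogenase, fell by 0.84 and 0.71 (edgeR adjusted p 0.00938 and 0.0431). Pnpla3 had 19.8 to 50.7 CPM in the knockout-labelled livers (log2 fold change 3.30 against young, edgeR adjusted p 0.0281). Of 27 list genes that could be named here 26 lost the call on leaving out at least 1 liver, Nfil3 being the exception, 12 lost it under another setting, and none changed direction.

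Both guides to Cd44 were compared with 2 livers each, and the fit draws its spread from all 10 livers. Between guide 4 and guide 2, 0.0216% of all genes were called and none of the 9; at an unadjusted p under 0.05 the shares were 4.34% and 0 of 9. The largest differences were -0.46 for Ppargc1a (SE 0.29), -0.36 for Foxo1 (SE 0.21) and -0.35 for Irs2 (SE 0.71), with 95% intervals of -1.11 to 0.18, -0.83 to 0.10 and -1.92 to 1.22. G6pc differed by -0.10 (-0.78 to 0.59) and Pklr by 0.24 (-0.21 to 0.68).

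Against old controls guide 2 gave 0.89 for G6pc, 0.55 for Pklr and 0.38 for Irs1, and guide 4 gave 0.79, 0.78 and 0.40 (edgeR adjusted p 0.542 to 0.98). At an unadjusted p under 0.05 these were 3 of the 9 genes for guide 2, against 7.04% of all genes, and 4 of the 9 for guide 4, with Irs2 (-1.47) as the fourth, against 3.91%. By adjusted p the shares of all genes were 0.0216% for guide 2 and 0% for guide 4, with none of the 9. Both sets of values use the same 3 old controls.

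**Figure D5:**
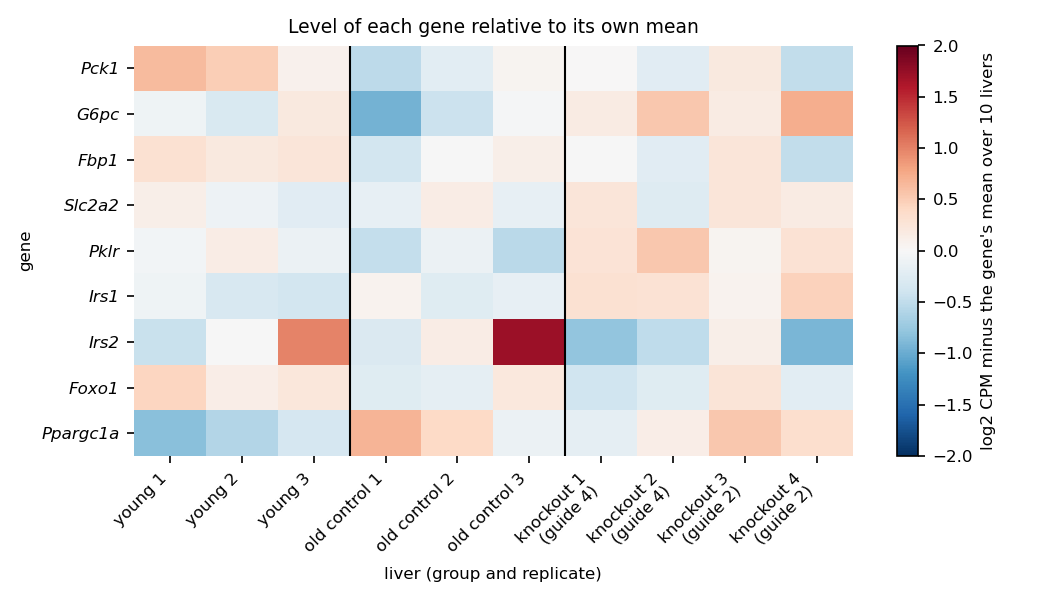
Log2 CPM of the 9 genes (rows) in each of the 10 livers (columns, by group and replicate), minus the gene's mean over all livers, from blue (lower) to red (higher). Irs2 in old control replicate 3 stands highest at 1.71 above its mean, G6pc stands lowest at -0.95 in old control replicate 1.

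Across the 10 livers the 9 genes fell along a few shared patterns. As a description over livers that share a group and a library, Pearson's r of log2 CPM was 0.90 between Pck1 and Fbp1, 0.79 between Fbp1 and Foxo1 and 0.77 between Pck1 and Foxo1. Ppargc1a ran against Pck1, with r of -0.81. G6pc went with Pklr, at 0.69, and not with Pck1, at -0.03, although both encode enzymes of gluconeogenesis. In knockout-labelled replicate 4 Pck1 and Fbp1 were the lowest of that group while G6pc was the highest, and in replicate 3 it was the reverse. Per length, the ratio of Pck1 to G6pc ran from 7.39 to 13.9 in young, 8.36 to 10.8 in old control and 3.42 to 8.15 in knockout-labelled livers.

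Among other genes with a mean of at least 5 CPM, the 2 most like each gene over the 10 livers were taken by the same r. Pck1 was most like Cops2 (0.973) and Ppm1b (0.958), Fbp1 like Apmap (0.953) and Sypl (0.945), and G6pc like Slc25a25 (0.841) and Mtmr10 (0.812). Slc2a2 was most like Gls2 (0.899) and Cks1b (0.873), and Pklr like 3110040N11Rik (0.917) and Foxn2 (0.869). For the regulators these were Iffo2 (0.945) and Pde6d (0.896) for Irs1, Ipo9 (0.92) and Zfp36l1 (0.904) for Irs2, Dennd4c (0.973) and Pnpla2 (0.973) for Foxo1, and Fam32a (0.959) and Txnip (0.954) for Ppargc1a. The values are the highest of about 9960 genes each and carry no test.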

How the data were processed

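RNA of 10 whole livers was sequenced as paired reads of polyadenylated RNA (Watchmaker mRNA kit, Element AVITI), per the labels' protocols. The authors deposited 1 table of raw counts per gene symbol, without normalization. The submitters' processing notes name FastQC 0.11.8, Trim Galore 0.4.4, STAR 2.5.3a, HOMER and build mm10; how strand and multiply mapped reads were treated was not given in the sources used here. Groups come from the labels, and replicate numbers only name a liver. Livers of a group differed beyond counting noise (chi-square per degree of freedom of at least 20.3). The total count of 15821198 to 21710228 per liver sets the precision of low genes.

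Counts were tested with edgeR 4.0.16 in R 4.3.3 by the quasi-likelihood test over all 10 livers, with 1 coefficient per group (separate ones per guide for guide contrasts), TMM factors and filterByExpr (minimum count 10, minimum total 15). P-values were adjusted by Benjamini-Hochberg over 13909 genes, and a gene was called at an adjusted p under 0.05; unadjusted p-values under 0.05 are marked as such. SE is the size of the log2 fold change divided by the square root of F, and intervals are 95%. CPM use TMM factors, and log2 CPM a prior count of 2. The statistics were tested on simulated counts.

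The 9 genes, the 9 pathway lists and the 11 marker lists (342 entries, 3 not in the table) were chosen with earlier results of these data known. Besides the 9 genes, up to 4 called genes per list and comparison with the largest change and at least 1 CPM in the higher group could be named, of which a selection is given; some are not reported here. Positions are GENCODE M21 on GRCm38, promoters RefSeq on GRCm38.p6, both matched by symbol for 9 of 9 genes. Alternatives were RLE and upper quartile factors, no filter, DESeq2 1.42.0, voom of limma 3.58.1, a fit of only the groups compared, and each liver left out.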

Additional observations from a re-analysis of the deposited data

Results flagged for a closer look

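A liver far from the other 3 among the 4 knockout-labelled livers was looked for. This check covered the genes followed here and the list genes that could be named by the rule given above. Other genes of the report, such as Cd44, Hcn3, Igfbp1 and Thrsp, were not checked. By Dixon's criterion 4 of the 49 genes checked had such a liver. Chance alone gives about 1 in 20. Slc2a2 had 174 CPM in replicate 2 (guide 4) against 234 to 247 CPM in the others, a gap of 0.83 of the range. Gpd1 had 432 CPM in replicate 1 (guide 4) against 325 to 341 CPM, a gap of 0.858. Nr4a1 had 5.45 CPM in replicate 2 against 2.63 to 3.11 CPM, a gap of 0.8293. Rps6kb1 had 35.3 CPM in replicate 4 (guide 2) against 28.4 to 29.01 CPM, a gap of 0.918.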

How the results depend on the processing

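Over 16 settings the 9 genes gave 630 log2 fold changes, of which 11 lost a call, 6 gained one and 31 changed sign, none of these a called value. The other 582 kept their side of the threshold with no change of sign counted. A value that rounds to 0 has no sign and was counted among the 582, so sign changes are undercounted. Of the 9 genes, 1 was called for age: 2 with DESeq2, 0 with only the groups compared, and 0 to 2 with 1 liver left out. Against young livers 1 was called in the knockout-labelled livers: 2 with upper quartile factors, 2 with DESeq2, 2 with only the groups compared and 0 to 2 with 1 liver left out. In the other comparisons 0 were called throughout. Genes called for age numbered 3172, but 1192 with only the groups compared and 396 to 5327 with 1 liver left out. For knockout-labelled against old control the 0 became 8 with DESeq2 and 0 to 3 with 1 liver left out. Against young livers the 1614 became 2803 with DESeq2, 969 with voom, 4223 with only the groups compared and 56 to 1652 with 1 liver left out, moving by less than 1.5 times only without knockout-labelled replicate 1. Between guides 3 became 10 without the filter, 73 with DESeq2 (38.4% higher, against 0%), 36 with only the guides compared and 0 with any liver left out. For guide 2 against old control 3 became 25 without the filter, 107 with DESeq2 (61.7% higher, against 100%), 10 with voom, 1 with only the groups compared and 0 to 3 with 1 liver left out, and for guide 4 DESeq2 called 1. Where a guide kept 1 liver, that liver was assumed to vary like the other groups.

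With 1 liver left out, values near 0 changed sign. For age Slc2a2 ran from -0.11 to 0.10 and Irs2 from -0.37 to 1.03. For knockout-labelled against old control Pck1 ran from -0.03 to 0.25, Ppargc1a from -0.31 to 0.07, Fbp1 from -0.15 to 0.09 and Foxo1 from -0.23 to 0.08. Between guide 4 and guide 2 the ranges were -0.35 to 0.21 for G6pc, -0.36 to 0.38 for Fbp1 (0.01 with voom), -0.47 to 0.03 for Slc2a2, -0.17 to 0.23 for Irs1 and -0.78 to 0.29 for Irs2. For guide 2 against old control they were -0.29 to 0.40 for Pck1, -0.10 to 0.28 for Ppargc1a and -0.16 to 0.31 for Foxo1, and for guide 4 -0.03 to 0.25 for Pck1, -0.17 to 0.07 for Fbp1 and -0.20 to 0.30 for Slc2a2. Pck1 between the guides and Fbp1 for guide 2 against old control rounded to 0 in the main fit, so no change of sign was counted for them. With 1 liver left out they ran from -0.30 to 0.39 and from -0.42 to 0.32. The cause of these changes was not tested. The values of list genes under the same settings were added after seeing the data. No paired analysis was possible because animals of different groups carry no shared number in the labels. Depth limits Irs2 and Ppargc1a most, with 30 to 237 and 50 to 182 counts per liver.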
